A study of Mus musculus with 20 samples.

Results

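The cytosolic ribosomal proteins are the protein components of the large and small ribosomal subunits outside mitochondria. They were taken from the table of counts by symbol: every row named Rpl or Rps with a number and at most 1 further letter and digit, the stalk proteins Rplp0 to Rplp2, and Rpsa. This gave 84 of 34291 genes, of which 46 encode large subunit proteins, 31 encode small subunit proteins and 7 are paralogs of such proteins (Rpl3l, Rpl7l1, Rpl10l, Rpl22l1, Rpl39l, Rps27l and Rps4y2). Mitochondrial ribosomal proteins carry other names and are not among them. The hearts came from 20 C57BL/6 mice with no engineered allele named in the labels, all of 27 months of age. The rapamycin group (n = 10) received 14 ppm rapamycin in the feed from the age of 24 months for 3 months, and the control group (n = 10) received a control diet over the same time. Poly(A) RNA of each whole frozen heart was sequenced as paired-end reads, and the sex of the animals is not given in the sources used here. Libraries are called by diet and label number.

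Ribosomal proteins are made in near-equal amounts, because each subunit holds a single copy of nearly each of them. Most of their mRNAs begin with a 5′ terminal oligopyrimidine (TOP) tract, a C followed by further pyrimidines, through which the kinase mTORC1, the target of rapamycin, governs their translation. That control acts on ribosome loading and need not change the amount of mRNA, which is the quantity counted here. A few ribosomal proteins have paralogs with tissue-restricted expression. Rpl3l, which takes the place of Rpl3 in ribosomes of heart and skeletal muscle, is the best known of these.

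Some annotated start sites lie on the tract that names this class of mRNA. Of the members, 63 have a start in the RefSeq promoter table for GRCm38.p6. In 13 of them (20.6%) a start lies exactly on a C followed by at least 4 bases that are C or T, read on the strand of the gene, against 3.01% of all 27025 genes of that table. When the tract may begin up to 5 bases to either side, 29 members (46.0%) have it, against 21.2% of all genes. The following stretches run from 10 bases before to 20 bases after the start, counting the start base among the latter, and capitals mark the tract. Rps18 is shown because it had the smallest p-value of all members, Rps6 as the substrate of the S6 kinases, Rpl35 for its long tract, Rps27 and Rps27l as parent and paralog, and Rpl3l because its start holds no tract.
Rps18 (chr17:33955646-33955675, minus strand): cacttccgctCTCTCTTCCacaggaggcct
Rps6 (chr4:86857348-86857377, minus strand): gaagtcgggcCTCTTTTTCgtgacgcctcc
Rpl35 (chr2:39005112-39005141, minus strand): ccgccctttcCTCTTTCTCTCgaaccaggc
Rps27 (chr3:90213629-90213658, minus strand): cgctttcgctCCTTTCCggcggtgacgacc
Rps27l (chr9:66946076-66946105, plus strand): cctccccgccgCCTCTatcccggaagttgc
Rpl3l (chr17:24727816-24727845, plus strand): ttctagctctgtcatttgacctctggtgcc
In Rps27l the tract begins 1 base after the annotated start. Rpl3l has 2 annotated starts in the table, and neither lies within 5 bases of such a tract. Annotated starts can be off by several bases, and a match describes the letters only.

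Copies of the coding sequences elsewhere in the genome limit what can be counted. Most ribosomal protein genes have processed pseudogenes, intronless copies of their mRNA elsewhere in the genome, and the authors kept reads that mapped to unique sites, per the series' design text. The first 50 coding bases of Rpl3 (gene at chr15:80077791-80091868) occur unchanged at 4 other annotated loci, among them the processed pseudogene Rpl3-ps1 (chrX:13202571-13203780), whereas Rpl3l (gene at chr17:24727820-24736143) differs from them at 11 bases, marked in capitals (GENCODE M21 annotation of GRCm38).
Rpl3: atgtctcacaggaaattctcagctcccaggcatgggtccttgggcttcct
Rpl3-ps1: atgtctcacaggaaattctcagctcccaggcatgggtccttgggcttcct
Rpl3l: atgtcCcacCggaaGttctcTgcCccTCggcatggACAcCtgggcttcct
Over the whole coding sequence Rpl3 and Rpl3l are identical at 73.4% of aligned bases, and no 50-base window of Rpl3l occurs at another locus, even with 2 mismatches allowed. In Rpl3 95.7% of the coding windows occur exactly elsewhere, and with 2 mismatches all of them do. The paralog Rps27l is identical to Rps27 at 76.2% of coding bases, Rpl22l1 to Rpl22 at 69.7% and Rpl7l1 to Rpl7 at 53.3%.

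The libraries held 7039514 to 12458309 counts, and levels are given as CPM, the counts scaled to a common library size, and 4 of them carried lung transcripts. Control 19 stood furthest apart, with 23990 summed normalised CPM of 5 lung markers and the lowest cardiomyocyte marker level. The other 3 were control 1, control 20 and rapamycin 15. Of 9 macrophage markers 8 were called lower with rapamycin and all 9 were below 0 (median log2 fold change -0.65), and all 8 cardiomyocyte markers were above 0 with none called (median 0.30). All 6 lymphocyte markers were below 0 and 2 of them were called lower (median -1.82). Fibroblast and endothelial markers gave no call. In whole hearts, fewer cells of a type and less RNA per cell cannot be told apart.

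Ribosomal protein transcripts differed little between the diets, and none of the 80 members tested was called. Called means an adjusted p under 0.05 in edgeR's quasi-likelihood test with Benjamini-Hochberg adjustment over 13940 genes, of which 3.36% were called. At an unadjusted p under 0.05 there were 11 members, 1 above 0 and 10 below, or 13.75% of those tested against 21.7% of all genes, and DESeq2's Wald test called 2 of them (Rpl3l higher, Rps18 lower), beside 1.97% of all genes that it called higher and 4.16% lower. The log2 fold change of rapamycin over control was below 0 for 69 of 80 members, against 52.5% of all genes. Its median was -0.06 beside -0.01 over all genes. The differences were small: 56 of 80 members lay within 0.1 of 0 on the log2 scale, and all but 2 within 0.3. The 4 members not tested had too few counts: the testis-type paralog Rpl10l was at 0 in all 20 libraries, Rpl39l averaged 0.220 normalised CPM in controls and Rps4y2, which GENCODE annotates as a transcribed processed pseudogene, 0.181, and Rpl5 averaged 0.706.

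**Figure D1:**
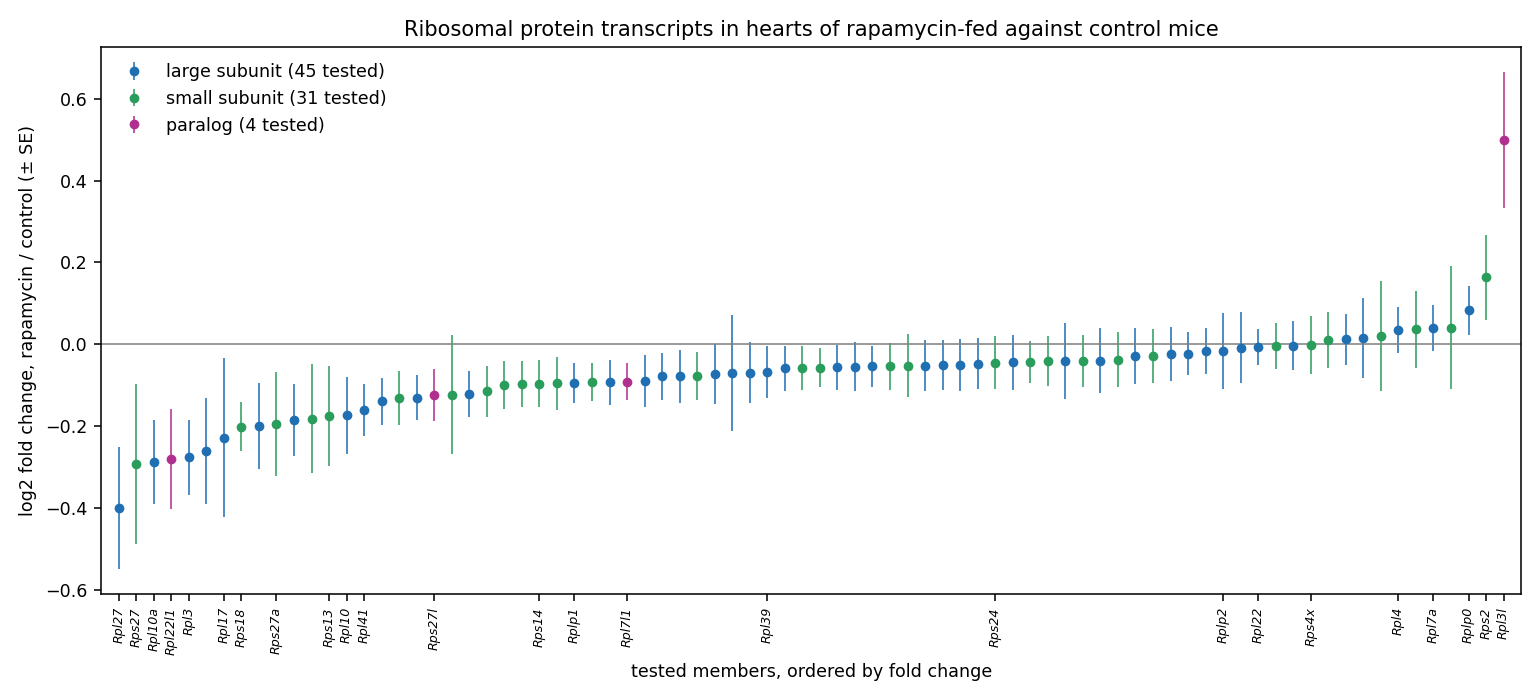
Log2 fold change of rapamycin over control (vertical axis, bars are SE) for the 80 tested members in order of size, coloured by class, with some of those named in the text labelled. Large and small subunit members are mixed along the order, 69 of 80 points lie below 0, and the paralog Rpl3l stands apart at 0.50.

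The 2 subunits gave the same median. Large subunit members had a median log2 fold change of -0.06 with 40 of 45 below 0, and small subunit members also had -0.06 with 26 of 31 below 0. No member of either was called. At an unadjusted p under 0.05, 8 large and 1 small subunit members were below 0 and none was above it. These were 17.8% of the large and 3.23% of the small subunit members tested, against 21.7% of all genes. Of the 13940 genes tested, 1880 were below 0 and 1144 above 0 at that p. The 13 members with a tract exactly at an annotated start had a median of -0.07 and the 43 tested members with a listed start but no tract there -0.06. These medians depend on the scaling: with library totals alone, the median of all genes moved to -0.13 and those of the large and small subunit to -0.18 each. Under that scaling 13 of 80 members were called lower and none higher, beside 9.21% of all genes called lower and 0.344% called higher.

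As a share of all counts, the members took 0.865% ± 0.0669 of a control library and 0.781% ± 0.0618 of a rapamycin library (SD over 10 hearts each). The lowest, median and highest shares were 0.787%, 0.836% and 0.989% in controls, and 0.712%, 0.765% and 0.924% with rapamycin. The ranges overlapped. Control 19 was the highest of all libraries and rapamycin 5 the highest of its group. Large subunit genes took 0.435% in controls and 0.392% with rapamycin, and small subunit genes 0.405% and 0.362%. The ratio of large to small subunit counts was steady from heart to heart. It ran from 1.05 to 1.10 in controls and from 1.05 to 1.11 with rapamycin, with means of 1.08 ± 0.0150 and 1.08 ± 0.0211. The 7 paralogs together took 0.0252% and 0.0267%.

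**Figure D2:**
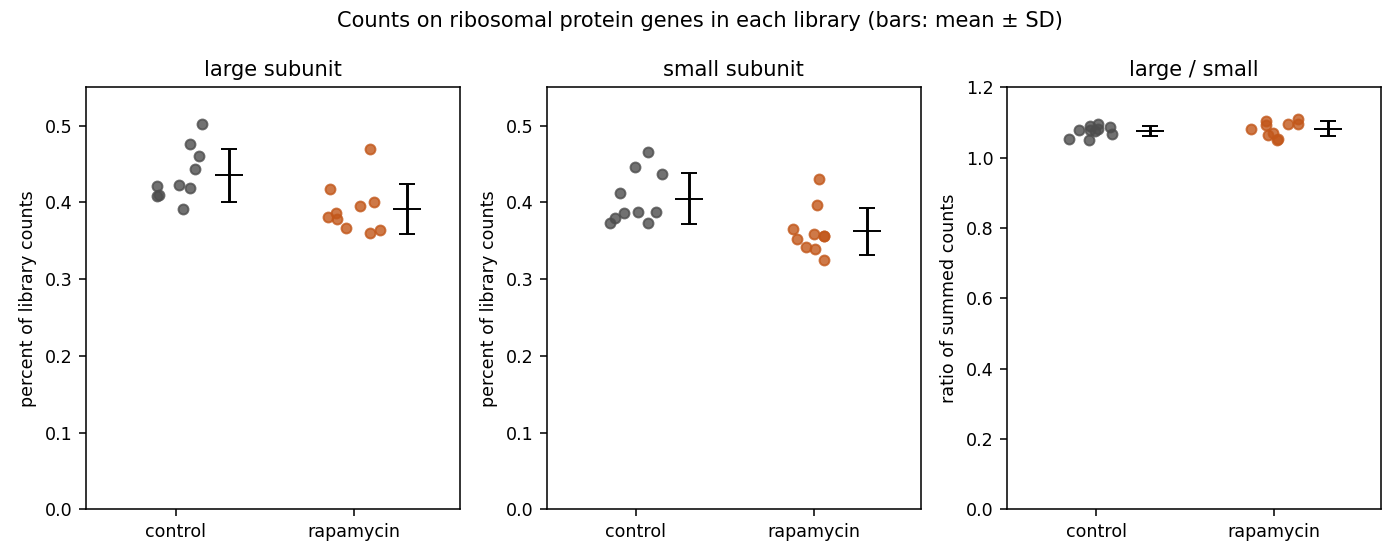
Percent of library counts on large and on small subunit genes, and the ratio of the 2 sums, for each of 10 control and 10 rapamycin libraries, with mean and SD beside the points. The shares overlap between the diets at 0.391 to 0.502% against 0.360 to 0.470% for the large subunit, and the ratio stays between 1.05 and 1.11 in all 20 libraries.

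Among the members that form the structural core of the subunits, the smallest p-value was that of Rps18, a protein of the small subunit head. In normalised CPM its lowest, median and highest control values were 67.2, 73.3 and 88.3, and its rapamycin values 53.9, 66.7 and 70.7. All 10 rapamycin libraries lay below the control median, and 6 of them below every control library. The log2 fold change was -0.20 ± 0.06 (SE, adjusted p = 0.0589 by edgeR). It passed the threshold when rapamycin 5 (adjusted p = 0.0431) or control 20 (0.0439) was left out. Rps18 was also the 1 member among the 700 genes of the authors' deposited table of CPM, where it averaged 78.5 ± 11.4 in controls and 62.7 ± 6.78 with rapamycin. Those CPM carry no scaling factor, and the 2 means lie further apart there than in normalised CPM (75.3 ± 6.76 for controls, 65.5 ± 5.44 for rapamycin, SD).

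Other large subunit members with small p-values were likewise below 0 and were not called. Rpl3, a core protein beside the peptidyl transferase centre, had lowest, median and highest values of 35.1, 38.8 and 56.0 normalised CPM in controls and 28.2, 34.2 and 46.7 with rapamycin. In 6 rapamycin libraries it lay below every control, while rapamycin 5 was the highest of its group and control 19 the highest of all. The log2 fold change was -0.28 ± 0.09 (SE, adjusted p = 0.0892 by edgeR), and without rapamycin 5 it was -0.33 with an adjusted p of 0.0242. Rpl10a stood at 10.6 ± 2.12 in controls and 8.69 ± 0.794 with rapamycin (log2 -0.29 ± 0.10, adjusted p = 0.114 by edgeR, and 0.0460 without control 20). Its highest control library was control 19. Rpl27 had the lowest fold change of all members, -0.40 ± 0.15 (adjusted p = 0.124 by edgeR). It rested on 19 to 52 counts per library, 2.00 to 4.30 normalised CPM with rapamycin and 3.03 to 6.01 in controls, and 5 rapamycin libraries lay below every control. Rpl41, the smallest ribosomal protein, stood at -0.16 ± 0.06 (adjusted p = 0.149 by edgeR).

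The next members were above 0. Rps2, a small subunit protein at the mRNA entry channel, averaged 189 ± 34.5 normalised CPM in controls and 211 ± 29 with rapamycin (log2 0.16 ± 0.10, adjusted p = 0.372 by edgeR). Its lowest control was control 19 at 120, and the values of the 2 groups overlapped. Rpl4 (0.04) and Rpl7a (0.04) were near 0, and both turned negative with library totals alone, at -0.09 and -0.08.

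Members with known roles beyond the structure of the ribosome gave no call. Rps6, the S6 kinase substrate, averaged 7.61 ± 1.12 normalised CPM in controls and 7.80 ± 1.01 with rapamycin, with ranges of 6.59 to 9.58 and 6.69 to 9.91 that overlapped almost fully. Its log2 fold change was 0.04 ± 0.09 (adjusted p = 0.859 by edgeR) and -0.10 with library totals alone. Of the stalk proteins that recruit elongation factors, Rplp0 stood at 0.08 ± 0.06 (-0.04 with library totals alone), Rplp1 at -0.09 ± 0.05 and Rplp2 at -0.02 ± 0.09. Of the 4 members known to bind the p53 regulator Mdm2, Rpl11 stood at -0.01 ± 0.09, Rpl23 at -0.09 ± 0.05 and Rps7 at -0.10 ± 0.06, and Rpl5 had too few counts. Rpsa, which also serves as a laminin receptor, stood at -0.09 ± 0.05. Rps27a, made as a fusion to ubiquitin, stood at -0.20 ± 0.13 on 3.16 to 6.79 normalised CPM.

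Rpl3l, the muscle paralog of Rpl3, had the highest log2 fold change of all tested members. In normalised CPM the lowest, median and highest values of Rpl3l were 44.4, 120 and 153 in controls, and 99.2, 162 and 209 with rapamycin. Of the rapamycin libraries 6 lay above every control, with control 19 the lowest of all libraries and rapamycin 5 the lowest of its group. The log2 fold change was 0.50 ± 0.17 (SE, adjusted p = 0.0888 by edgeR) and did not pass the threshold, with means of 116 ± 33.5 and 164 ± 31.2 (SD). Without control 19 the fold change was 0.41 (adjusted p = 0.0604 by edgeR) and without rapamycin 5 it was 0.56 (0.0426).

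The ratio of Rpl3l to Rpl3 counts within a library does not depend on how libraries are scaled, and it was higher with rapamycin. It ran from 0.792 to 4.07 in controls and from 2.12 to 7.41 with rapamycin, and 9 of 10 rapamycin libraries lay above every control. The exception was rapamycin 5 at 2.12, and the lowest control was control 19 at 0.792. On the log2 scale its mean was 1.40 (SD 0.70) for 10 controls and 2.23 (SD 0.47) for 10 rapamycin hearts, a difference of 0.82 ± 0.27 (SE) or 1.77-fold (2-sided permutation test, p = 0.0032, adjusted p = 0.0127 over 4 paralog pairs). The adjusted p stayed under 0.05 in all 20 repeats that each left out 1 library, and without control 19 the difference was 0.63 (adjusted p = 0.0251, permutation). Without the 4 libraries with lung transcripts it was 0.67, with p = 0.0151 and an adjusted p of 0.0603 by permutation. The absolute ratio has no meaning as a ratio of mRNA, since the coding windows of Rpl3 are shared with copies and those of Rpl3l are not. Both groups were mapped in the same way.

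**Figure D3:**
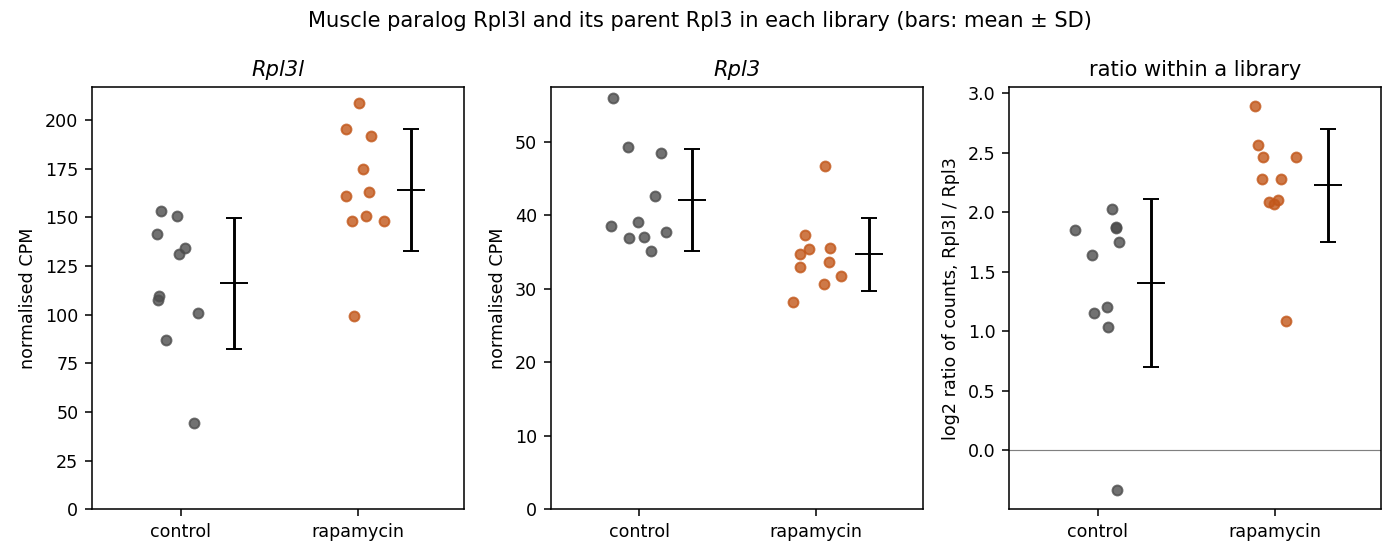
Normalised CPM of Rpl3l and of Rpl3, and the log2 ratio of their counts, in each of 10 control and 10 rapamycin libraries, with mean and SD beside the points. In the ratio 9 of 10 rapamycin points lie above the highest control at 2.02, and control 19 (-0.34) and rapamycin 5 (1.09) are the low points of their groups.

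Across hearts Rpl3l was high where Rpl3 was low. Pearson's r between their log2 CPM was -0.798 over 20 libraries (permutation p = 8.0e-05, adjusted over 3 relations 0.00024) and Spearman's rho was -0.747 (p = 0.00025). Within controls r was -0.672 (p = 0.0292, permutation) and rho -0.406 (p = 0.247), and within the rapamycin group r was -0.816 (p = 0.0101, permutation) and rho -0.612 (p = 0.0676). By rank, then, neither group on its own passed. Control 19 had both the lowest Rpl3l (44.4 normalised CPM) and the highest Rpl3 (56.0) of the controls. Rapamycin 5 had the lowest Rpl3l (99.2) and the highest Rpl3 (46.7) of its group. The correlation within a diet was not tested without these libraries. Without control 19 and control 7, the libraries furthest from the median of Rpl3, r was -0.659 and rho -0.670 over 18 libraries (permutation p = 0.00303 and 0.00331).

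Marker levels of cell types were set beside the ratio of Rpl3l to Rpl3, and their correlation with it across libraries was not tested. The summed level of the 8 cardiomyocyte markers ran from 14382 to 51926 normalised CPM in controls and from 42034 to 56322 with rapamycin. That of the 9 macrophage markers ran from 642 to 3433 in controls and from 444 to 881 with rapamycin. The sum of 3433 was that of control 19, which carried lung transcripts, and Lyz2 alone made up 2972 of it. Control 2 was the next control at 1289. Rapamycin 5, whose ratio was the lowest of its group, had the lowest cardiomyocyte sum and the highest macrophage and fibroblast sums of that group. Its fibroblast sum of 2676 normalised CPM lay above the highest control at 2185. Rpl3l minus the mean of the cardiomyocyte markers, a comparison added after seeing the data, was -4.97 ± 0.18 in controls and -4.80 ± 0.20 with rapamycin on the log2 scale. That difference of 0.17 had p = 0.0533 in a 2-sided permutation test, and p = 0.0681 without control 19. Skeletal muscle also makes Rpl3l. Its fast myosins were at or near 0, with Myh4 at 0 in every library and Myh1 at 0.0914 normalised CPM in controls and 0.0674 with rapamycin, and the 5 skeletal muscle markers summed to 3.75 to 6.53 in controls and 2.50 to 5.27 with rapamycin. The part of macrophages, fibroblasts or other cell types in the ratio was not tested.

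The other pairs gave no call. The log2 ratio of Rpl22l1 to Rpl22 averaged -2.82 (SD 0.31) over controls and -3.08 (SD 0.20) over rapamycin hearts, a difference of -0.26 ± 0.12 (SE, 2-sided permutation p = 0.0344, adjusted p = 0.0688). Rpl22 itself had the smallest spread of all tested members in controls, at 157 ± 7.40 normalised CPM in controls and 156 ± 9.12 with rapamycin. Rpl22l1, whose product can replace Rpl22, had lowest, median and highest values of 15.1, 21.7 and 36.2 in controls and 14.1, 18.1 and 23.4 with rapamycin, with control 19 the highest. Without control 19 its ratio differed by -0.19 (adjusted p = 0.139, permutation) and without control 13 by -0.32 (0.00576). The ratio of Rpl7l1 to Rpl7 differed by -0.04 ± 0.05 and that of Rps27l to Rps27 by 0.14 ± 0.22 (SE, adjusted p = 0.536 each, permutation). Rps27l, with fewer shared coding windows (48.3%) than Rps27 (100%), averaged 56.5 ± 6.53 normalised CPM in controls and 51.8 ± 3.59 with rapamycin, against 7.70 ± 3.27 and 6.28 ± 1.67 for Rps27. The ratio of that pair differed by -0.06 without the 4 libraries with lung transcripts.

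**Figure D4:**
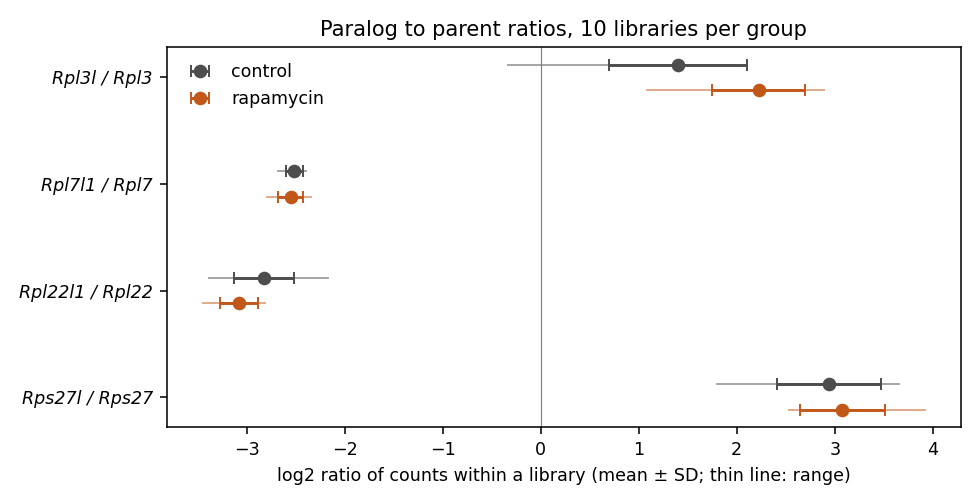
Log2 ratio of paralog to parent counts within a library for 4 pairs with counts in every library (points are means of 10 libraries per group, thick bars SD, thin lines the range). Only the pair Rpl3l and Rpl3 has group means further apart (1.40 and 2.23) than the SD of each group, and the ranges overlap in every pair.

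Counted levels of the members spanned a 1678-fold range per kb of coding sequence, although their products are used in near-equal numbers. Among the 77 large and small subunit members the level ran from 0.793 normalised CPM per kb (Rpl5) to 1330 (Rpl41), with a median of 154. Levels were lower where more sequence is shared with other loci. Of these genes 29 had all of their 50-base coding windows exactly at another annotated locus, with a median level of 23.2 per kb. Another 37 shared from 50% to under 100% (median 211), and 11 shared less (median 451). The last group was also the most even, from 336 for Rpl8 to 744 for Rps21. Spearman's rho between level and shared percentage was -0.787 across 77 genes, which is a description over genes of the same libraries, and genes are not independent replicates.

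The ends of that order show single genes. The 5 highest levels per coding kb were those of Rpl41, Rpl39 (873), Rps21 (744), Rps24 (689) and Rps14 (666). Rpl41 and Rpl39 depend on the length used, since their coding sequences of 75 and 153 bases are far shorter than their transcripts. Per kb of transcript Rpl41 ranked 24 and Rpl39 ranked 19. The lowest large and small subunit members were Rpl5, Rpl17 (6.23) and Rps13 (9.83), each with all coding windows shared, and Rps6 (10.2) and Rpl27 (10.6) were close to them. Below Rpl17 also stood the paralogs Rpl39l (1.44) and Rpl10l (0), which are known from testis. Rps3 with 8.1% shared windows and Rpl8 with 8.7% belonged to the even group, and Rpl7a, with copies of its sequence at 170 pseudogenes, stood at 57.1. The median level was 103 per kb for large and 192 for small subunit genes, with medians of 93.3% and 88.3% shared windows.

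**Figure D5:**
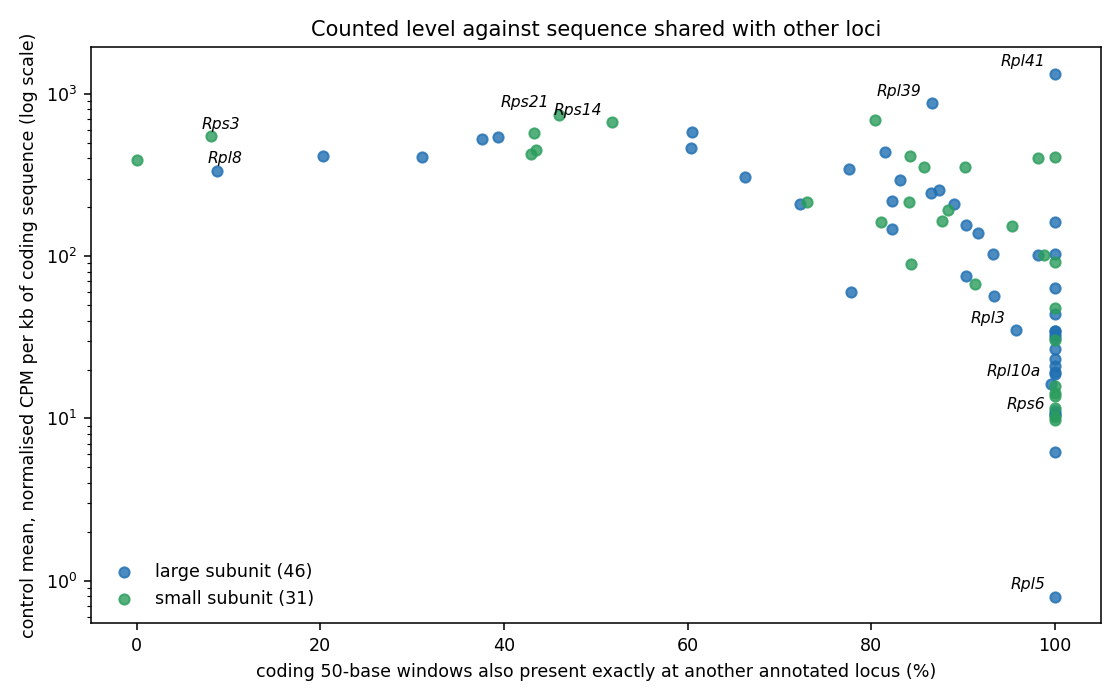
Control mean in normalised CPM per kb of coding sequence (log axis) against the percentage of 50-base coding windows that occur exactly at another annotated locus, for 46 large and 31 small subunit members. Genes sharing under 50% lie between 336 and 744, and those sharing all windows spread from 0.793 (Rpl5) to 1330 (Rpl41).

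Few counts were listed on the pseudogene rows named after a member. Copies under other names, such as Gm10288 for Rpl11, were not summed. The table of counts has 217 rows named as pseudogenes of a member, and together they held 32.6 CPM in controls, with 88 rows at 0 in every library. Rpl34-ps1 (14.9 CPM) and Rpl9-ps7 (4.33) made up most of this sum. A gene with all coding windows shared can still have counts. Its transcript can hold unshared windows outside the coding sequence, 1019 of 1996 in Rpl5 with 2 mismatches allowed, against 0 of 296 in Rps27. Pairs of reads can also be placed where a single 50-base window cannot. Which of these gave the counts was not tested.

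The members with the least shared sequence also had small differences between the diets. In the 11 members sharing under 50% of their coding windows, all log2 fold changes lay within 0.1 of 0, with a median of -0.04, 10 of 11 below 0 and no unadjusted p under 0.05. The 37 members sharing 50% to under 100% had a median of -0.05 and the 28 tested members with all windows shared -0.09. The largest SD of log2 CPM in controls belonged to Rpl3l (0.53), Rps27 (0.46) and Rps29 (0.41), and the smallest to Rpl22 (0.07), with Rpl39 (0.09) close to it. Rps27 and Rps29 averaged 7.70 and 8.0 normalised CPM, whereas Rpl22 and Rpl39 averaged 157 and 134. Control 19, which carried lung transcripts, was the lowest control for Rpl3l (44.4) and Rps29 (4.12) and the highest for Rps27 (16.5). Without control 19 the SD of Rpl3l in controls was 0.28.

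None of the listed genes that work with the ribosome was called by edgeR's quasi-likelihood test, and their values lay on both sides of 0. Of 4 ribosomal proteins outside the naming rule none passed: Gnb2l1, which encodes the scaffold Rack1, stood at -0.09 ± 0.05, Rpl36al at -0.11 ± 0.07 and Fau, a ubiquitin-like fusion, at 0.00 ± 0.10. In a list of 12 elongation factors and other mRNAs of the TOP class, 8 were above 0 and the median was 0.11, against -0.06 for the members. The translocation factor Eef2 averaged 1038 ± 161 normalised CPM in controls and 1275 ± 163 with rapamycin (log2 0.30 ± 0.09, adjusted p = 0.0781 by edgeR), and the initiation factor Eif4b stood at 0.14 ± 0.05 (0.122). DESeq2's Wald test called both of them higher, Eef2 at 0.31 (adjusted p = 0.0240) and Eif4b at 0.15 (0.0327), and edgeR called Eef2 higher without control 17 (0.33, adjusted p = 0.0454). The poly(A)-binding protein Pabpc1 stood on the other side, at -0.34 ± 0.11 (adjusted p = 0.0888 by edgeR). Pabpc1 was called lower without rapamycin 5 (-0.38, adjusted p = 0.0438 by edgeR) and with library totals alone (-0.45, 0.0305). That scaling also called Gnb2l1 (-0.21, 0.0432) and Eef1b2 lower, beside 9.21% of all genes. DESeq2's Wald test called 1.97% of all genes higher. Eef1a2, the elongation factor of muscle and neurons, had 0.33 ± 0.17 (0.265).

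Ribosome assembly genes had a median near 0. Of 28 such genes 16 were above 0, none was called by edgeR and the median was 0.02. The smallest p-values were those of nucleolin Ncl (0.11 ± 0.05, adjusted p = 0.165 by edgeR, and -0.01 with library totals alone), the nucleolar GTPase Gnl3 (-0.13 ± 0.06, 0.193) and Polr1a, the largest subunit of RNA polymerase I (0.20 ± 0.10, 0.235). DESeq2's Wald test called Ncl higher (0.12, adjusted p = 0.0402), beside 1.97% of all genes. With library totals alone edgeR called 3 of the 28 lower, Gnl3 (-0.26, adjusted p = 0.0217), Pes1 and Wdr12. That scaling called 9.21% of all genes lower. The 5 regulators of TOP mRNA translation had a median of 0.07, with the repressor Eif4ebp1 at 0.17 ± 0.08 (adjusted p = 0.249 by edgeR), Rps6kb1, the S6 kinase, at 0.07 ± 0.05 (-0.05 with library totals alone) and Eif4ebp2 at 0.07 ± 0.09 (-0.06).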

How the data were processed

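Raw counts by gene symbol for 20 mouse hearts, and a table of CPM for 700 genes, were deposited by the authors. The series' design text states 50-base paired reads, placement on MGSCv37 at unique sites and up to 2 mismatches. For aligner, counter, strand setting and the role of edgeR (listed in the submitters' processing notes) the answer is the same: not given in the sources used here. The authors' CPM equal counts scaled by the column total.

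Counts were filtered by expression, normalised by TMM and tested for rapamycin against control in all 20 libraries with edgeR 4.0.16 in R 4.3.3 (quasi-likelihood test, Benjamini-Hochberg, threshold 0.05). The biological coefficient of variation was 0.202. Normalised CPM were computed on TMM-scaled totals and, for log2 CPM, with 2 prior counts. Ratios add 0.5 to each count, and permutation tests drew 100000 resamples. Library totals lay between 7039514 and 12458309 counts. Counting error differs by gene with its own counts, such as 19 to 52 per library for Rpl27, and was not computed apart.

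Shared sequence was found with bwa 0.7.19 by placing every 50-base window of each member's transcript on all GENCODE M21 transcripts (GRCm38), with up to 2 mismatches. All 84 members matched there, 2 by an older symbol, and 83 have a coding length. That build is not the authors', and coordinates are those of GRCm38. The 2-group script was tested on simulated data.

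The members, gene lists and tests were chosen with earlier results of these data known. Genes named with values are the 5 smallest p in each direction, the 5 highest and lowest levels per coding length, the 3 members with the largest and smallest spread in controls, fixed genes, paralogs and parents, and, of each other list, called genes and the 3 smallest p. Rpl35, Rpl8, Rps3 and the pseudogene rows were chosen after their values or sequences were seen. Some genes under this rule are not reported here. Alternatives were DESeq2 1.42.0 (test and size factors), library totals alone, no filter, leaving out each library or the 4 with lung transcripts, another added count, another denominator and length per transcript. The subset sharing little sequence and the comparison of Rpl3l with cardiomyocyte markers were added after seeing the data. The labels tie each library to 1 mouse by the stated n, and name neither batch nor date.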

Additional observations from a re-analysis of the deposited data

Results flagged for a closer look

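Of 76 groups of 10 libraries examined (members and ratios named above, each within 1 diet), 7 held a library far from the rest by Dixon's criterion, which chance meets in about 1 in 20 groups. Control 19 was the high library for Rpl22l1 (36.2 normalised CPM, next 26.1) and for Rps27 (16.5, next 8.80), and the low one for the log2 ratio of Rpl3l to Rpl3 (-0.34, next 1.03). Rapamycin 5 was the high library for Rpl3 (46.7, next 37.4) and Rpl39 (165, next 137), and the low one for the log2 ratio of Rpl3l to Rpl3 (1.09, next 2.07). Control 17 was the high library for Rplp1 (234, next 204).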

How the results depend on the processing

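No member was called with DESeq2's size factors in edgeR, without the filter, or without the 4 libraries with lung transcripts. DESeq2's Wald test called 1 member higher and 1 lower, and library totals alone called 13 lower, with a median of -0.18 for the large and -0.18 for the small subunit, beside 9.21% of all genes called lower and a median of -0.13 over all genes. When 1 library was left out, 0 to 1 members were called higher and 0 to 2 lower. Without the 4 libraries with lung transcripts the log2 ratio of Rpl3l to Rpl3 differed by 0.67 (adjusted p = 0.0603, permutation) and that of Rps27l to Rps27 by -0.057. The difference for Rpl22l1 to Rpl22 ran from -0.32 to -0.19 with 1 library left out, and passed the threshold in 3 of 20 such repeats. With mitochondrially encoded and lung genes out of the denominator, the members took 1.10% of control and 1.01% of rapamycin counts. Per kb of transcript the median level was 72.0 in place of 154. The causes were not tested.

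Values near 0 changed sign. With library totals alone Rpl4 stood at -0.087, Rpl7a at -0.081, Rplp0 at -0.037, Rps29 at -0.087, Rps6 at -0.095, Ncl at -0.012, Rps6kb1 at -0.054 and Eif4ebp2 at -0.056. Without the filter Rpl11 stood at 0.012, Rpl22 at 0.013, Rplp2 at 0.00086 and Rps4x at 0.020. Under DESeq2 Rpl11 stood at 0.0044, Rpl22 at 0.0062 and Rps4x at 0.011, and with its size factors in edgeR Rps4x at 0.0055. Without the 4 libraries with lung transcripts Rpl4 stood at -0.0069 and Rps29 at -0.14. With 1 library left out Rpl22 ran from -0.026 to 0.011, Rplp2 from -0.044 to 0.030, Rps29 from -0.046 to 0.074, Rps4x from -0.032 to 0.033, Rps6 from -0.0046 to 0.084 and Rpl11 from -0.049 to 0.034.

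No paired analysis was possible because each library number occurs in 1 group. Rpl5, Rpl39l and Rps4y2 had too few counts to be tested, so a difference there was not detectable. Most members share coding windows with other loci, and whether unique mapping set their counted levels was not tested.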
